A study of Mus musculus with 12 samples.

Results

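The genes described here encode 9 G protein-coupled receptors for lipids, nucleotides and related small ligands in mouse B cells, among 43629 genes in the count table. They are Cnr2, Gpr18, Ptger4, Lpar6, P2ry10, Gpr174, P2ry14, Adora2a and Gpr171, found by gene symbol. Of these, 8 were picked for their role in B cells. Gpr171 was selected on its pattern of levels over the 12 libraries, so its values are given as a description with no test. All 9 genes passed the filter on low counts in both comparisons.

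RNA was sequenced from splenic B cells in 12 libraries, 4 in each of 3 groups. Marginal zone (MZ) cells labelled Zfp36l1-deficient carried the genotype Zfp36l1fl/flERT2cre/+ (replicates 1, 2, 7 and 8), control MZ cells were ERT2cre/ERT2cre (replicates 3, 4, 5 and 6), and follicular (FO) cells were Zfp36l1fl/fl cre- (replicates 3, 4, 7 and 8). The labels give the strain of all 12 samples as Zfp36l1tm1.1Tnr and both sort gates as positive for B220 and CD93, with CD21 high and no CD23 for MZ cells and CD21 with CD23 for FO cells. Besides Zfp36l1, deficient and control MZ cells thus differed in the floxed allele and the cre dose. The promoter that drives the cre, any induction, and the age, sex and number of animals are not stated in the labels, so the spread behind the p-values may be technical. For MZ libraries 5 ng of RNA went into a SMARTer kit, with 100 bp paired reads. The design text gives a stranded TruSeq kit and 100 bp single reads for FO libraries, whereas the extract protocol names SMARTer for all samples. The kit of the FO libraries is thus not settled by the labels. Subset, read layout, floxed allele, cre genotype and any difference in kit therefore cannot be told apart in any comparison of MZ with FO cells.

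Libraries held 28938453 to 40664963 counts. Zfp36l1 itself measured 22.0, 31.8, 28.1 and 37.5 CPM (counts scaled to library size, with TMM over all 12 libraries) in deficient MZ libraries, against 116, 110, 118 and 126 in control MZ libraries, and its log2 fold change was −1.98 (SE 0.13, adjusted p = 4.92e-07). All p-values here are from edgeR's quasi-likelihood test on the counts, adjusted by Benjamini-Hochberg over all tested genes. The markers followed the gates for CD21 and CD23. Cr2, which encodes CD21, averaged 3449, 4114 and 1368 CPM in deficient MZ, control MZ and FO cells, and Fcer2a, which encodes CD23, averaged 112, 129 and 1287. Cd93 averaged 0.715 and 0.677 CPM in deficient and control MZ cells, against 19.6 in FO cells, although the labels give both gates as CD93 positive.

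G protein-coupled receptors cross the membrane with a bundle of helices and pass the binding of a ligand on to heterotrimeric G proteins. Those that act through Gi or Gs lower or raise cyclic AMP, and those that act through G12 and G13 switch on the small GTPase RhoA, which can restrain migration. B cells read lipid and nucleotide gradients with such receptors to choose between the follicle, the marginal zone and the blood. Zfp36l1 is an RNA-binding protein that attaches to AU-rich elements in 3′ untranslated regions (UTRs) and speeds the decay of the mRNA.

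Because Zfp36l1 binds AU-rich elements, the longest annotated 3′ UTR of each receptor was searched for the heptamer TATTTAT, read as DNA on the gene's own strand. The heptamer was found 5 times in Gpr174, 2 times in Ptger4 and 1 time in Gpr171, and in none of the other 6 UTRs. For comparison, 29.3% of the 11408 tested genes with an annotated 3′ UTR hold it. The 8 matches are shown with 8 bases on either side, with the heptamer in capitals (GRCm38, GENCODE M21).
Gpr171, chr3:59096951-59096973, minus strand: atcattttTATTTATaactattg
Ptger4, chr15:5234214-5234236, minus strand: atttaaggTATTTATgttcttct
Ptger4, chr15:5233910-5233932, minus strand: attacattTATTTATccagaaaa
Gpr174, chrX:107293718-107293740, plus strand: aatgcacaTATTTATgacaatac
Gpr174, chrX:107295223-107295245, plus strand: caacagtaTATTTATatatatcc
Gpr174, chrX:107295684-107295706, plus strand: ttttatgcTATTTATctacccag
Gpr174, chrX:107296282-107296304, plus strand: agatctctTATTTATcattttga
Gpr174, chrX:107296718-107296740, plus strand: gcagctctTATTTATcatatgaa
The flanks of the 8 matches were all different. The Gpr174 UTR is also the second longest of the 9, with 3178 bases after Lpar6 with 3659, and a longer UTR has more places for a match. A match describes these letters and is not a measured binding site.

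Between deficient and control MZ cells, 517 of 13987 tested genes changed, which is 3.7% (2.29% higher and 1.4% lower, adjusted p under 0.05). Among the 8 receptors chosen for role, 1 changed. This was Adora2a, which rose, and the other 7 were not called in either direction. The median log2 fold change of the 8 was 0.03, against −0.0037 over all tested genes, and their median absolute log2 fold change was 0.19, against 0.14. Groups of libraries did not overlap for 3 of the 8 (Cnr2, Lpar6 and Adora2a), and for 11.9% of all tested genes. With 8 genes, neither count can be read as standing apart from those shares.

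Between control MZ and FO cells, 11278 of 13843 genes changed, or 81.5% (42.6% higher and 38.8% lower). All 8 receptors chosen for role were called, 4 higher (Gpr18, Ptger4, Cnr2 and P2ry14) and 4 lower (P2ry10, Gpr174, Adora2a and Lpar6). With most genes called, being called says little, and the sizes are more informative. A gene was tested when enough libraries reached a count minimum (10 at the median depth). P2ry14 reached it in control MZ libraries but not in all FO libraries, so it was tested only through the group where it is higher. Of all genes that reached it in every library of both groups, 80.2% were called. The median absolute log2 fold change of the 8 was 0.98, against 0.75 over all tested genes. Groups did not overlap for 7 of the 8, and for 76.9% of all tested genes. The control MZ libraries entered both comparisons, so the values of the comparisons are given side by side and no relation between them is drawn.

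**Figure D1:**
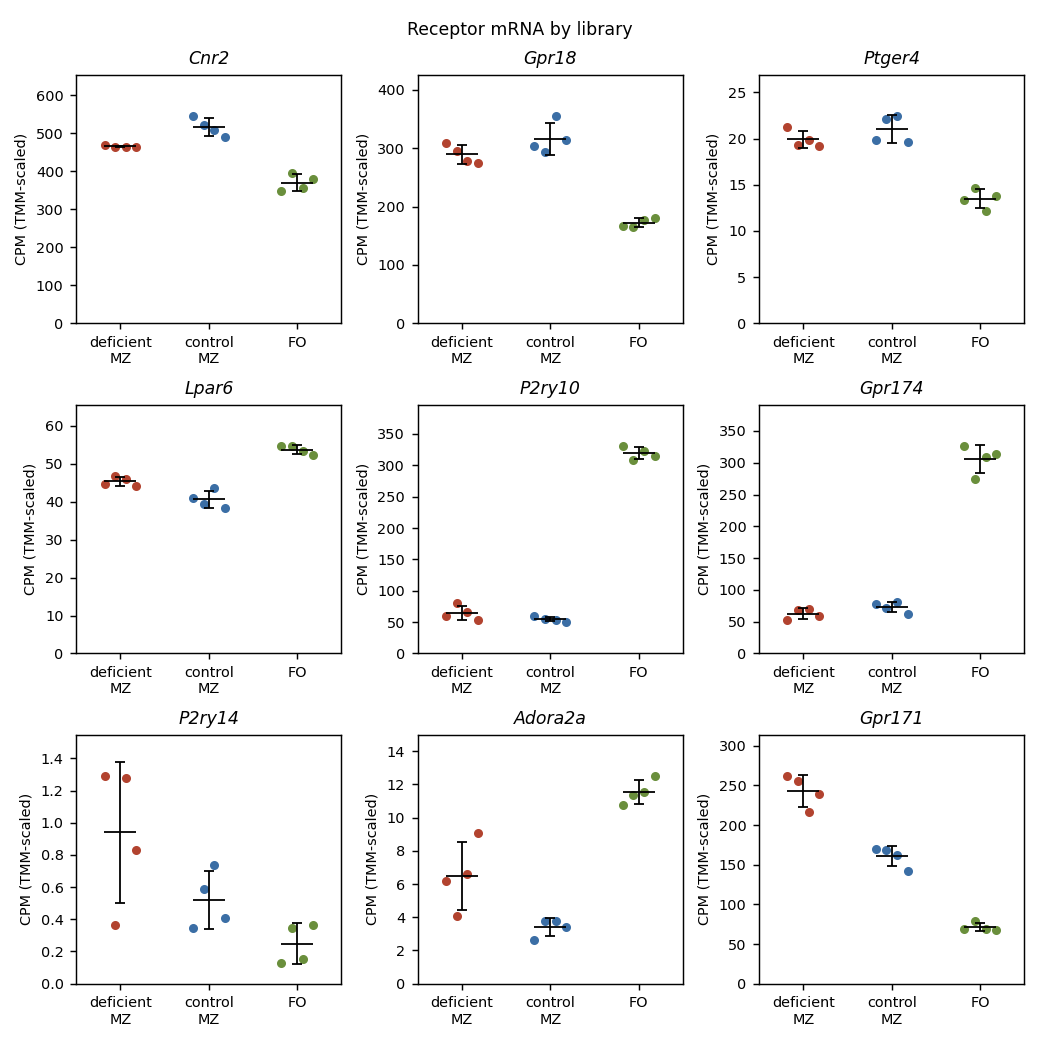
TMM-scaled CPM (linear axis from 0) of the 9 receptor genes in each of the 12 libraries, with deficient MZ, control MZ and FO from left to right in each panel. Points are libraries, long bars are group means and whiskers are SD (n = 4). P2ry10 and Gpr174 stand between 275 and 331 CPM in FO libraries and at most 80.5 in every MZ library, whereas Gpr171 is highest in deficient MZ and lowest in FO libraries, with no overlap.

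Cnr2 encodes the cannabinoid receptor CB2, a Gi-coupled receptor for the endocannabinoid 2-arachidonoylglycerol that helps to hold mouse MZ B cells in the spleen. The gene lies at chr4:135895394-135920207 on the plus strand (GRCm38, as for all loci here). It measured 469, 465, 464 and 465 CPM in deficient MZ replicates 1, 2, 7 and 8, against 546, 522, 508 and 490 in control MZ replicates 3, 4, 5 and 6, and 347, 397, 357 and 379 in FO replicates 3, 4, 7 and 8. The 3 groups did not overlap, with control MZ cells highest and FO cells lowest. The 4 deficient libraries lay close together, all just under the lowest control library. The log2 fold change in deficient against control MZ cells was −0.16 (SE 0.06) and was not called (edgeR adjusted p = 0.176), with an unadjusted 95% interval of −0.29 to −0.03. In control MZ against FO cells Cnr2 rose, with a log2 fold change of 0.49 (SE 0.06, edgeR adjusted p = 6.81e-06).

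Gpr18 encodes a lymphocyte receptor for which N-arachidonyl glycine and resolvin D2 have been proposed as ligands. It measured 309, 295, 278 and 275 CPM in deficient MZ libraries, against 303, 293, 355 and 314 in control MZ libraries, and 167, 164, 177 and 180 in FO libraries. Deficient and control MZ libraries overlapped, and both groups lay well above every FO library. The log2 fold change was −0.14 (SE 0.07) in deficient against control MZ cells (edgeR adjusted p = 0.311) and 0.89 (SE 0.06) in control MZ against FO cells, where Gpr18 rose 1.85-fold (edgeR adjusted p = 3.28e-08).

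Gpr18 lies on the minus strand at chr14:121911253-121915781 (GRCm38) within Ubac2, which runs on the plus strand and encodes a ubiquitin-associated protein. Their annotated exons share no base. Ubac2 also rose in control MZ against FO cells, with 126 ± 6.0 and 59.6 ± 3.03 CPM (SD, n = 4 each) and a log2 fold change of 1.09 (SE 0.05, edgeR adjusted p = 1.87e-09). Gpr183, the oxysterol receptor gene that also lies within Ubac2, measured 155 ± 18.5 and 170 ± 9.76 CPM and was not called (log2 −0.12 ± 0.08 SE, edgeR adjusted p = 0.185). The difference in Gpr18 was thus found beside one neighbour that differed in the same direction and another that was not called. The sources used here do not give the strand setting of the counting, and whether reads from Ubac2 introns were counted for Gpr18 was not tested.

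Ptger4 encodes EP4, a Gs-coupled receptor for prostaglandin E2, and lies at chr15:5206661-5244187 on the minus strand. It measured 21.3, 19.3, 19.9 and 19.2 CPM in deficient MZ libraries, against 19.8, 22.2, 22.5 and 19.6 in control MZ libraries, and 13.3, 14.7, 12.2 and 13.8 in FO libraries. Deficient and control libraries overlapped closely, and all MZ libraries exceeded all FO libraries. The log2 fold change of −0.09 (SE 0.09) in deficient against control MZ cells was not called (edgeR adjusted p = 0.632), and its unadjusted 95% interval of −0.27 to 0.10 covers folds between 0.828 and 1.07. In control MZ against FO cells Ptger4 rose (log2 0.65 ± 0.09 SE, edgeR adjusted p = 1.63e-05). Of its exon bases, 16.5% lie under exons of the other strand, those of Ttc33 and Gm15937, where reads cannot be assigned without strand. Ttc33 moved the other way (log2 −0.29 ± 0.06 SE, edgeR adjusted p = 0.00058).

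Among the lysophospholipid receptors, Lpar6 encodes a receptor for lysophosphatidic acid that couples to G12 and G13. The gene lies at chr14:73237895-73243294 on the plus strand. It measured 44.6, 46.8, 45.9 and 44.0 CPM in deficient MZ libraries, against 41.0, 39.4, 43.5 and 38.4 in control MZ libraries, and 54.6, 54.6, 53.4 and 52.2 in FO libraries. The 3 groups did not overlap in these TMM-scaled levels, and the gap between the lowest deficient and the highest control library was less than 1 CPM. The log2 fold change in deficient against control MZ cells was 0.15 (SE 0.07) and was not called (edgeR adjusted p = 0.251). In control MZ against FO cells Lpar6 fell by 0.39 on the log2 scale (SE 0.05, edgeR adjusted p = 2.09e-05), the smallest of the 8 changes. The TMM factors over all 12 libraries were 1.056 to 1.104 in control MZ and 0.851 to 0.875 in FO libraries. Levels are divided by these factors, which lowers MZ and raises FO levels, the direction of this change. Whether Lpar6 differed between control MZ and FO cells with scaling by library total alone was not tested. Lpar6 lies within Rb1, which runs on the opposite strand, with 7.56% of its exon bases under Rb1 exons, and Rb1 was not called in that comparison (log2 0.08 ± 0.06 SE, edgeR adjusted p = 0.213).

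P2ry10 encodes a receptor for lysophosphatidylserine and lies at chrX:107088492-107104974 on the plus strand. It measured 59.3, 80.2, 65.8 and 52.8 CPM in deficient MZ libraries, against 59.2, 55.6, 54.1 and 50.7 in control MZ libraries, and 331, 309, 322 and 316 in FO libraries. FO libraries stood far above all MZ libraries, among which deficient replicate 2 was the highest and the groups overlapped. P2ry10 fell 5.77-fold in control MZ against FO cells (log2 −2.53 ± 0.06 SE, edgeR adjusted p = 3.16e-12). The log2 fold change of 0.22 (SE 0.11) in deficient against control MZ cells was not called (edgeR adjusted p = 0.275).

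Gpr174 encodes a second lysophosphatidylserine receptor, which couples to Gs and to G12 and G13, and lies on the same strand at chrX:107255878-107296769. It measured 53.0, 69.0, 70.6 and 58.2 CPM in deficient MZ libraries, against 78.3, 71.2, 80.5 and 61.8 in control MZ libraries, and 326, 275, 309 and 313 in FO libraries. As with P2ry10, MZ groups overlapped and FO libraries were several times higher. Gpr174 fell 4.16-fold in control MZ against FO cells (log2 −2.06 ± 0.08 SE, edgeR adjusted p = 3.06e-10). Its 3′ UTR holds the most heptamers of the 9 receptors, shown above, and its mean was lower in deficient than in control MZ cells (log2 −0.23, SE 0.10), a difference that was not called (edgeR adjusted p = 0.252).

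Between these genes lies P2ry10b, a mouse paralogue of P2ry10. Its leftmost annotated base is 60.4 kb from that of P2ry10, and that of Gpr174 is 167 kb away (GRCm38). P2ry10b averaged 15.6 ± 1.12 CPM in deficient MZ cells, 14.4 ± 2.09 in control MZ cells and 111 ± 4.05 in FO cells (SD, n = 4 each). It fell 7.60-fold in control MZ against FO cells (log2 −2.93 ± 0.09 SE, edgeR adjusted p = 2.19e-11) and was not called in deficient against control MZ cells (log2 0.11 ± 0.11 SE, edgeR adjusted p = 0.65). Control MZ cells thus held less mRNA of all 3 receptors of the stretch. The next expressed protein-coding gene, Itm2a, rose instead (log2 1.29 ± 0.18 SE, edgeR adjusted p = 3.07e-05). Of the 2979 windows of 50 bases in annotated P2ry10 transcripts, 113 also occur in P2ry10b, or 3.79%, so most windows tell the paralogues apart.

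RefSeq lists more than one start for P2ry10 and P2ry10b, and the windows from 250 bases before to 50 after each start were searched on both strands for GAGGAAGT, whose reverse complement is ACTTCCTC. These letters are the core bound by the ETS factor PU.1 (Spi1), a regulator of B cell genes, and 3.2% of 32817 RefSeq promoter windows hold them. One P2ry10 window and one P2ry10b window hold them, and the Gpr174 window does not. These genes are shown because P2ry10 and Gpr174 had the largest fold changes of the 9 receptors in control MZ against FO cells. For P2ry10 and P2ry10b the window shown is the one that holds the match. GAGGAAGT was among several motifs searched in all promoters, and the only one of them found in these genes. Each sequence is the 250 bases before the start, with the match in capitals (RefSeq, GRCm38.p6, plus strand).
P2ry10, chrX:107089083-107089332: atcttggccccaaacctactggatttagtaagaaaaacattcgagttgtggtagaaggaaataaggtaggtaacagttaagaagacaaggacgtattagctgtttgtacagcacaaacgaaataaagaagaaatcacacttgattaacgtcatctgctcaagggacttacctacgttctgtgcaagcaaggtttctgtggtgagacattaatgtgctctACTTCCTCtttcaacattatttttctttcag
P2ry10b, chrX:107149365-107149614: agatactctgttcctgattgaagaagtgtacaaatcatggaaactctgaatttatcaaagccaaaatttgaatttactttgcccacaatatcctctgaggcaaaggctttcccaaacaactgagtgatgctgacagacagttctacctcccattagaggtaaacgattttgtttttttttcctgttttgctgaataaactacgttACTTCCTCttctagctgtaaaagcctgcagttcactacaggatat
Gpr174, chrX:107284096-107284345: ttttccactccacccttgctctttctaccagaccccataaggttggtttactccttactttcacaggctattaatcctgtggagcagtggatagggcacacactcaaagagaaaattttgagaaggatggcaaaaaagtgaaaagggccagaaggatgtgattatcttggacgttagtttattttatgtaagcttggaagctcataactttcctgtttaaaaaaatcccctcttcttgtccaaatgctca
The match begins 31 bases before the start in P2ry10 and 45 before it in P2ry10b, in the same orientation. At the best ungapped offset the P2ry10 and P2ry10b windows were 36.6% identical, and P2ry10 and Gpr174 37.0%, so the windows as wholes were not alike. Spi1 binding was not measured here, and no match in Gpr174 says only that these letters are not in this window.

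All promoters, those above included, were searched in the same way for GAGGAAGT and for motifs of RBPJ, EBF1, POU2F, IRF and KLF factors. Of the 9 receptors, 7 had a RefSeq promoter entry (not Gpr171 or Adora2a), and among them P2ry10 alone held GAGGAAGT. Cnr2 holds the octamer ATTTGCAT 48 bases before one of its starts, a motif found in 1.74% of all promoter windows. Gpr18 holds GAAAGAGAAA, a match to the IRF motif, 41 bases before its start, against 3.43% of all windows. The RBPJ letters GTGGGAA and the EBF1 motif, found in 6.39% and 0.905% of all windows, were in none of these promoters. KLF letters (CCNCNCCC) were present 4 times in Ptger4, where some matches overlap. They were present 4 times over 3 of the P2ry14 windows, with 1 site counted again where windows overlap. In 1 of the Cnr2 windows they were present 3 times, overlapping each other, and 49.5% of all windows hold them.

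**Figure D2:**
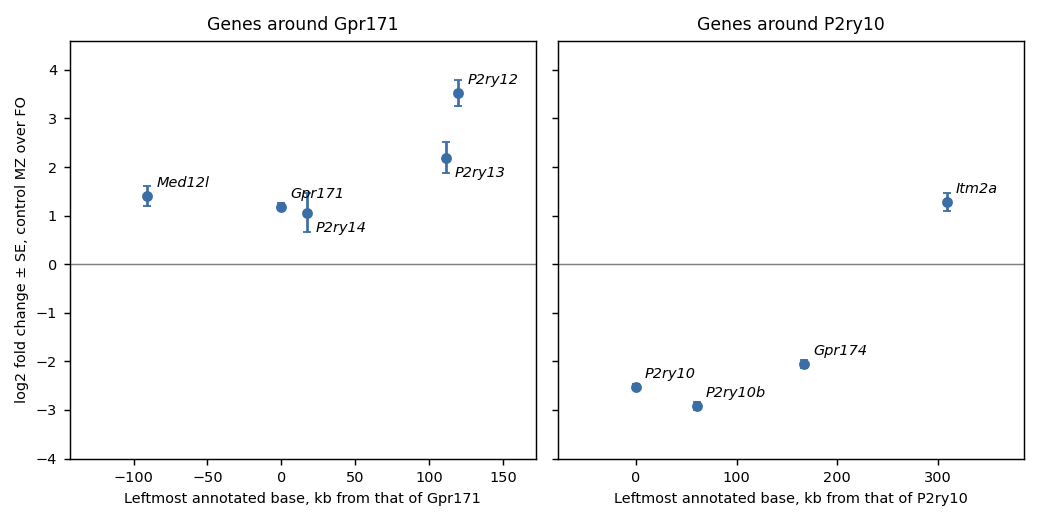
log2 fold change ± SE in control MZ over FO cells (edgeR) of the tested genes named in the text around Gpr171 on chromosome 3 and around P2ry10 on the X chromosome, by the distance in kb between their leftmost annotated bases. P2ry10, P2ry10b and Gpr174 lie between −2.93 and −2.06 and Itm2a above 0. The 5 genes around Gpr171 lie between 1.06 and 3.52, but Gpr171 was chosen for its pattern and P2ry12, P2ry13 and P2ry14 were tested only through control MZ cells, so their side of 0 was largely set by the choice.

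P2ry14 encodes the receptor for UDP-glucose. It was the least expressed of the 9 receptors, with 44, 13, 55 and 26 counts in deficient MZ replicates 1, 2, 7 and 8, against 14, 22, 31 and 16 in control MZ replicates 3, 4, 5 and 6, and 4, 11, 5 and 13 in FO replicates 3, 4, 7 and 8. In CPM these were 1.29, 0.363, 1.28 and 0.833 in deficient MZ libraries, against 0.346, 0.589, 0.740 and 0.408 in control MZ libraries, and 0.126, 0.348, 0.152 and 0.365 in FO libraries. The 3 groups overlapped pairwise, and deficient replicate 2 lay among the control libraries. The log2 fold change of 0.85 (SE 0.40) in deficient against control MZ cells was not called (edgeR adjusted p = 0.271), and at this depth its unadjusted 95% interval reached from −0.02 to 1.71. In control MZ against FO cells it was called higher (log2 1.06 ± 0.41 SE, edgeR adjusted p = 0.0297). That call was lost without control replicate 4 or 5, without FO replicate 3 or 7, with no filter and with DESeq2, with adjusted p up to 0.0958 among these, and with replicate numbers as a block (adjusted p = 0.167). In the authors' deposited table its adjusted p is 0.0609.

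P2ry14 and Gpr171 lie on the minus strand of chromosome 3 in a row of P2Y-like receptor genes, at chr3:59113855-59153618 and chr3:59096448-59101821 (GRCm38), all within Med12l on the plus strand. P2ry13 and P2ry12, which encode receptors for ADP found on macrophages and platelets, follow in the same row. P2ry12 averaged 2.37 ± 0.264 CPM in deficient MZ cells, 2.89 ± 0.347 in control MZ cells and 0.251 ± 0.0857 in FO cells, and P2ry13 averaged 1.33 ± 0.573, 1.43 ± 0.418 and 0.314 ± 0.112 (SD, n = 4 each). Both rose in control MZ against FO cells, P2ry12 with a log2 fold change of 3.52 (SE 0.26, edgeR adjusted p = 9.65e-08) and P2ry13 with 2.20 (SE 0.33, edgeR adjusted p = 4.85e-05). Like P2ry14, both were tested only through control MZ cells, the group where they are higher. Med12l, a Mediator gene, rose as well (log2 1.41 ± 0.21 SE, edgeR adjusted p = 4.79e-05). None of these 3 was called in deficient against control MZ cells (log2 −0.29, −0.10 and 0.18, edgeR adjusted p = 0.426, 0.901 and 0.536).

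Platelet markers and part of the macrophage markers were also called higher in control MZ than in FO cells. All 5 platelet markers rose in control MZ against FO cells (3 of them tested only through control MZ cells). The summed platelet levels were 11.4 to 19.8 and 3.31 to 4.02 CPM. Among all tested genes 42.6% were higher. Of 11 tested macrophage and monocyte markers 8 rose (6 of them tested only through control MZ cells) and 1 fell. The 1 that fell was Adgre1, with 1.72 ± 0.711 and 10.3 ± 5.34 CPM (log2 −2.56 ± 0.38 SE, edgeR adjusted p = 4.9e-05). Of the 4 that reached the count minimum in both groups, 2 rose, 1 fell and 1 was not called. The summed macrophage levels overlapped, at 28.1 to 34.3 and 15.4 to 36.3 CPM. No marker of either list was at 0 in all libraries of a group. Their part in P2ry12, P2ry13 and P2ry14 was not tested, and in bulk samples more cells of a type and more RNA per cell cannot be told apart.

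Adora2a encodes an adenosine receptor that raises cyclic AMP through Gs and is known to dampen lymphocyte activation. The gene lies at chr10:75316877-75334784 on the plus strand. It measured 6.21, 4.05, 6.57 and 9.10 CPM in deficient MZ replicates 1, 2, 7 and 8, against 2.64, 3.75, 3.80 and 3.44 in control MZ replicates 3, 4, 5 and 6, and 10.8, 11.4, 11.5 and 12.5 in FO replicates 3, 4, 7 and 8. The groups did not overlap. Deficient MZ cells lay between control MZ and FO cells, with deficient replicate 2 just above the highest control library and deficient replicate 8 closest to FO cells. These values rest on 145 to 284 counts in deficient MZ libraries, 107 to 159 in control MZ libraries and 343 to 444 in FO libraries.

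Adora2a rose 1.89-fold in deficient against control MZ cells, with means of 6.48 ± 2.07 and 3.41 ± 0.533 CPM (SD, n = 4 each) and a log2 fold change of 0.92 (SE 0.22, edgeR adjusted p = 0.0333). Of all tested genes, 97.4% had a smaller absolute fold change. The call was lost without deficient replicate 7 or 8 and without control replicate 3, 4, 5 or 6, where the adjusted p lay between 0.0515 and 0.102 and the log2 fold change between 0.72 and 0.97. Without deficient replicate 1 or 2 it was kept, and over all alternatives the adjusted p ranged from 0.00172 to 0.102. In the authors' deposited table the log2 fold change is 0.57 with an adjusted p of 0.00173. DESeq2 run here gave 0.92 with an adjusted p of 0.00172, and why the deposited fold change is smaller was not tested. In control MZ against FO cells Adora2a fell 3.36-fold (log2 −1.75 ± 0.13 SE, edgeR adjusted p = 9.43e-08). Its 3′ UTR of 848 bases holds no TATTTAT and is 45.4% A or T, the lowest share of the 9.

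**Figure D3:**
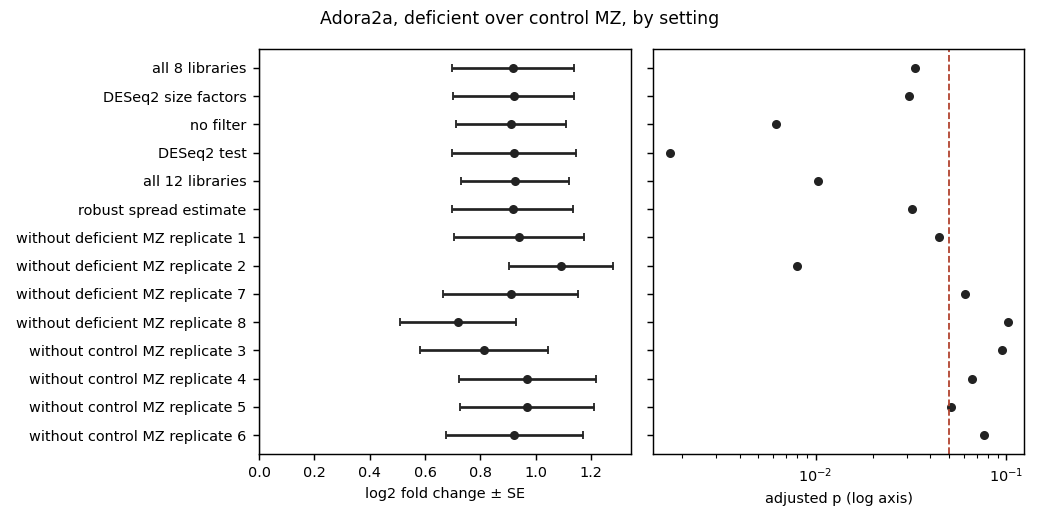
Adora2a in deficient over control MZ cells under each setting: log2 fold change ± SE on the left and adjusted p on a log axis on the right, with the threshold of 0.05 as a dashed line. The fold change stays between 0.72 and 1.09, while the adjusted p crosses the threshold in 6 of the 8 fits that leave out a library.

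Among markers of FO B cells, T cells, red cells and macrophages, some were called higher in deficient than in control MZ cells, as Adora2a was. The summed T cell and macrophage levels of these groups overlapped. Of 6 FO B cell markers 5 rose in deficient against control MZ cells, where 2.29% of all tested genes were higher. The summed FO marker levels were 1120 to 1378 and 849.9 to 962 CPM, against 3920 to 4102 in FO cells. Of 11 T cell markers 3 were tested and 2 rose: Cd8a averaged 1.96 ± 1.12 and 0.474 ± 0.108 CPM and Tcf7 1.03 ± 0.627 and 0.183 ± 0.0933 CPM in deficient and control MZ cells (SD, n = 4 each). The summed T cell level was 40.1 to 46.0 and 37.6 to 48.6 CPM in these groups. Cd3e, a defining T cell gene, had at most 1 count in a deficient library and 0 in all control libraries, where Cd4 and Cd28 were at 0 as well. Tcf7 was tested only through deficient MZ cells. Of 6 erythroid markers 5 were tested, each with an unadjusted p under 0.05 and 4 of them only through deficient MZ cells. The haemoglobin gene Hbb-bt rose (2.44 ± 1.02 and 0.887 ± 0.535 CPM, log2 1.44 ± 0.38 SE, edgeR adjusted p = 0.0491), and the summed erythroid level was 7.21 to 24.9 CPM in deficient and 1.19 to 10.7 in control MZ libraries. Of 10 tested macrophage and monocyte markers, Adgre1 rose (4.50 ± 0.659 and 1.72 ± 0.711 CPM, log2 1.37 ± 0.28 SE, edgeR adjusted p = 0.0148) and 9 were not called, with summed levels of 30.3 to 42.4 and 28.1 to 34.3 CPM. The part of these cell types in the Adora2a difference was not tested.

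Gpr171 encodes a P2Y-like receptor for which the peptide BigLEN has been proposed as ligand. It measured 261, 256, 217 and 239 CPM in deficient MZ replicates 1, 2, 7 and 8, against 170, 168, 163 and 143 in control MZ replicates 3, 4, 5 and 6, and 68.5, 79.5, 69.3 and 68.0 in FO replicates 3, 4, 7 and 8. The 3 groups did not overlap, with deficient MZ cells highest and FO cells lowest. Among the 9 receptors this order of means was shared with P2ry14 alone, whose groups overlapped. Gpr171 was 1.5-fold higher in deficient than in control MZ cells (log2 0.59, SE 0.08) and 2.27-fold higher in control MZ than in FO cells (log2 1.18, SE 0.07). Over all alternatives these log2 fold changes lay between 0.53 and 0.64 and between 1.15 and 1.24. Med12l, in which it lies and whose exons it does not touch, measured 7.72 ± 0.822 and 6.79 ± 0.895 CPM in deficient and control MZ cells (SD, n = 4 each).

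The genes whose pattern was most like that of Gpr171, by Pearson's r of log2 CPM over the 12 libraries among 10391 protein-coding genes, were Nuak2 (r = 0.997), Hs3st1 (r = 0.993), Tomm34 (r = 0.991), Itgb2 (r = 0.991) and Rgmb (r = 0.988). With 3 groups set apart, a high r mainly reflects the order of the group means, and 1721 genes had r above 0.9. Hs3st1, a heparan sulfate sulfotransferase gene, averaged 107 ± 10.7, 72.0 ± 5.81 and 22.6 ± 1.84 CPM in deficient MZ, control MZ and FO cells. Itgb2, which encodes the beta chain of LFA-1, averaged 320 ± 12.1, 272 ± 5.29 and 190.1 ± 12.8 CPM (SD, n = 4 each). Of the other receptors in that set, Ptger4 was most like Gpr171 (r = 0.876) and Gpr174 most opposed to it (r = −0.95). P2ry14 lay below the mean level of 1 CPM needed to enter.

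**Figure D4:**
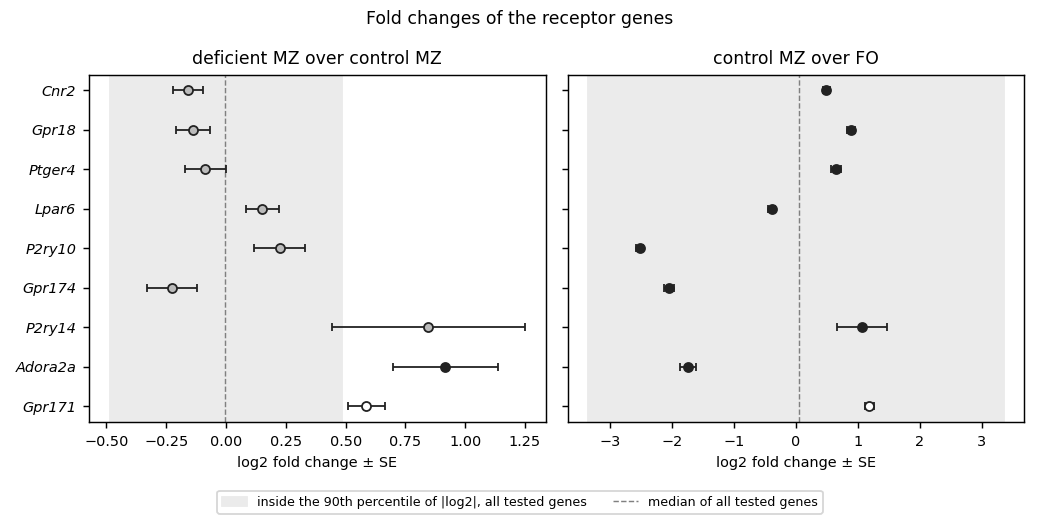
log2 fold change ± SE (edgeR) of the 9 receptor genes in deficient over control MZ cells (left) and control MZ over FO cells (right), on axes of different range. Black points were called, grey points were not, and the white point is Gpr171, given without a test. The grey band spans the 90th percentile of the absolute log2 fold change of all tested genes, 0.49 on the left and 3.36 on the right. On the left Adora2a, P2ry14 and Gpr171 lie outside the band, and on the right no receptor does.

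Set against each other per length (CPM per kb of annotated exon), the order of the receptors was led by Gpr18 in each group, with 193 ± 10.7 in deficient MZ cells, 211 ± 18.2 in control MZ cells and 115 ± 5.10 in FO cells. Cnr2 followed in deficient and control MZ cells (117 ± 0.563 and 130 ± 5.93), where it overlapped Gpr171 in deficient cells (109 ± 9.03) but not in control cells (72.3 ± 5.63). In FO cells P2ry10 came second (107 ± 3.15) and overlapped Gpr18, ahead of Cnr2 (92.9 ± 5.62) and Gpr174 (56.6 ± 4.02). P2ry10 and Gpr174 stood at 21.6 ± 3.93 and 11.6 ± 1.57 in deficient MZ cells and at 18.4 ± 1.18 and 13.5 ± 1.56 in control MZ cells. P2ry14 was last everywhere, at 0.0850 ± 0.0397, 0.0471 ± 0.0162 and 0.0224 ± 0.0114 (SD, n = 4 each). The design text gives MZ and FO libraries different kits and read layouts, and their part in the per-length levels was not tested.

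**Figure D5:**
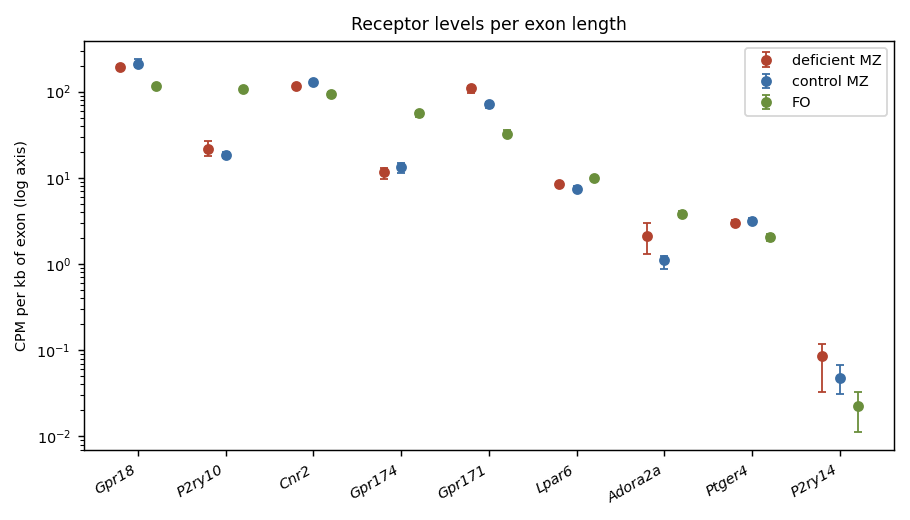
CPM per kb of annotated exon (log axis) of the 9 receptor genes, ordered by their mean in FO cells, for deficient MZ, control MZ and FO. Points are means and whiskers the range over 4 libraries. P2ry10 and Gpr174 stand next to Gpr18 and Cnr2 in FO cells and below Gpr171 in MZ cells, and P2ry14 is lowest in every group.

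Of 36 other lipid receptor genes 17 were tested in control MZ against FO cells, 3 of them only through the group where they were higher. Of the 14 that reached the count minimum in both groups, 8 rose, 5 fell and 1 was not called, or 92.9% called against 80.2% of all such genes, with a median log2 fold change of 1.44 against −0.03. S1pr3 and S1pr1, receptors for sphingosine 1-phosphate that hold MZ B cells near the blood, averaged 561 ± 50.1 and 1177 ± 80.3 CPM in control MZ cells, against 7.43 ± 1.38 and 344 ± 57.7 in FO cells. Both rose, S1pr3 with log2 6.25 ± 0.12 SE (edgeR adjusted p = 9.6e-13) and S1pr1 with log2 1.78 ± 0.11 SE (edgeR adjusted p = 1.03e-08). S1pr4 fell (log2 −2.19 ± 0.07 SE, edgeR adjusted p = 4.31e-11), as did the lysophosphatidic acid receptor gene Lpar2 (log2 −2.81 ± 0.09 SE, edgeR adjusted p = 6.69e-11). Among prostanoid receptors, Ptger1 rose, with 52.5 ± 3.44 and 3.76 ± 0.509 CPM in control MZ and FO cells (log2 3.81 ± 0.10 SE, edgeR adjusted p = 8.81e-12), and the thromboxane receptor gene Tbxa2r rose too (log2 1.86 ± 0.10 SE, edgeR adjusted p = 6.53e-09).

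In deficient against control MZ cells, 2 of the 17 tested lipid receptor genes rose, 0 fell and 15 were not called, where 2.29% of all tested genes were higher and 1.4% lower. Of the 17, 2 were tested only through control MZ cells, the group where they are higher. Over the 14 that reached the count minimum in both groups, the median log2 fold change was −0.05, against −0.0056 over all such genes. S1pr4 rose (44.1 ± 3.38 and 29.5 ± 2.22 CPM, log2 0.57 ± 0.08 SE, edgeR adjusted p = 0.00169). Gpr34, another lysophosphatidylserine receptor gene, rose as well (35.8 ± 6.07 and 20.7 ± 6.29 CPM, log2 0.78 ± 0.18 SE, edgeR adjusted p = 0.0259), and this call was lost when deficient replicate 7 or 8, or control replicate 3 or 4, was left out. Of 20 other receptors for nucleotides, nucleosides and metabolites, 5 were tested here and 0 were called by edgeR, 0 of them at an unadjusted p under 0.05 and 0 by DESeq2. Between control MZ and FO cells 6 were tested. P2ry12, P2ry13 and Gpr4 rose but were tested only through control MZ cells, so no count is drawn from them. P2ry10b and Gpr65, the gene of a proton-sensing receptor, reached the count minimum in both groups and fell.

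Of 18 tested genes for enzymes that make, release or break down lipid ligands, 5 were tested only through control MZ cells. Of the 13 that reached it in both groups, 11 rose in control MZ against FO cells, 1 fell and 1 was not called, or 92.3% called against 80.2% of all such genes, with a median log2 fold change of 1.04 against −0.03. The list holds both enzymes that make 2-arachidonoylglycerol, the ligand of Cnr2, such as Daglb (47.9 ± 2.49 and 18.2 ± 0.791 CPM in control MZ and FO cells, log2 1.41 ± 0.06 SE, edgeR adjusted p = 6.87e-10), and enzymes that break it down, such as Abhd12 (98.8 ± 8.46 and 41.9 ± 1.37 CPM, log2 1.25 ± 0.06 SE, edgeR adjusted p = 2.2e-09) and Abhd6 (log2 1.76 ± 0.11 SE, edgeR adjusted p = 1.68e-08). Abhd12 also breaks down lysophosphatidylserine, the ligand of P2ry10 and Gpr174. Plpp3, a phosphatase that removes lysophosphatidic acid and sphingosine 1-phosphate, averaged 74.8 ± 5.86 and 10.8 ± 1.98 CPM. Between deficient and control MZ cells 1 of 19 fell, where 1.4% of all tested genes were lower. This was Alox12 (1.17 ± 0.151 and 2.39 ± 0.265 CPM, log2 −1.03 ± 0.21 SE, edgeR adjusted p = 0.0162), a call lost without control replicate 4.

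Of 13 tested genes for nucleotide and adenosine metabolism, all past the count minimum in both groups, 8 rose in control MZ against FO cells, 2 fell and 3 were not called. This is 76.9% called, below the 80.2% of all such genes, with a median log2 fold change of 0.56 against −0.03. Those that rose included the adenosine transporter gene Slc29a1 (31.4 ± 2.32 and 13.7 ± 1.91 CPM, log2 1.21 ± 0.10 SE, edgeR adjusted p = 2.83e-07), the adenosine kinase gene Adk (log2 1.68 ± 0.12 SE, edgeR adjusted p = 4.55e-08) and Cd38, which encodes an ectoenzyme that consumes NAD (log2 1.06 ± 0.10 SE, edgeR adjusted p = 6.91e-07). Enpp1, an ectoenzyme that splits ATP, fell (10 ± 1.76 and 64.5 ± 5.57 CPM, log2 −2.67 ± 0.12 SE, edgeR adjusted p = 6.42e-10). Deficient against control MZ cells gave 1 of 13 that fell, where 1.4% of all tested genes were lower. This was the transporter gene Slc29a3 (84.3 ± 6.34 and 105 ± 3.92 CPM, log2 −0.33 ± 0.07 SE, edgeR adjusted p = 0.0204). It was no longer called when deficient replicate 8, or any of control replicates 4, 5 and 6, was left out.

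Of the G protein subunit genes through which the receptors act, 20 were tested in control MZ against FO cells. Of the 17 that reached the count minimum in both groups, 4 rose, 11 fell and 2 were not called, or 88.2% called against 80.2% of all such genes, with a median log2 fold change of −0.64 against −0.03. Gna13, which encodes the G13 subunit used by Lpar6 and P2ry10, averaged 73.0 ± 9.15 CPM in control MZ cells and 244 ± 3.49 in FO cells (log2 −1.73 ± 0.08 SE, edgeR adjusted p = 1.08e-09). Its relative Gna12 rose (log2 0.62 ± 0.08 SE, edgeR adjusted p = 1.1e-05). Gnas, which encodes the Gs subunit used by Adora2a and Ptger4, averaged 14.6 ± 0.840 and 468 ± 15.4 CPM (log2 −5.00 ± 0.06 SE, edgeR adjusted p = 4.9e-14). Gnas has several overlapping transcripts, and opposite-strand exons cover 22.0% of its exon length. The part of kit and counting in this value was not tested. In deficient against control MZ cells 1 of 22 subunit genes fell and 21 were not called, where 1.4% of all tested genes were lower. The 1 that fell was Gna15 (4.49 ± 1.35 and 8.70 ± 1.02 CPM, log2 −0.97 ± 0.19 SE, edgeR adjusted p = 0.0135).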

How the data were processed

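The authors deposited raw counts, 1 whole number per Ensembl gene and library, with no pooling. The submitters' processing notes name HTSeq, DESeq2 1.10.1, TopHat2 2.0.12 and Trim Galore, and build GRCm38, but no strand setting. The deposited normalised signal is the count divided by 1 factor per library (0.842 to 1.15) and served only to find those factors. Log2 fold changes and adjusted p-values of the authors were copied from the authors' deposited tables.

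In R 4.3.3, counts went into edgeR 4.0.16 (quasi-likelihood test, TMM scaling), with the default filter by group and Benjamini-Hochberg adjustment over all tested genes, called at 0.05. Each comparison used its own 8 libraries, since the design text gives FO libraries another kit and read layout. The procedure was tested on simulated data. Levels are TMM-scaled CPM with the SD over 4 libraries. Intervals are from the fit and are not adjusted.

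Of the gene IDs, 42462 matched GENCODE M21, which gave symbols, loci and UTRs. Promoters are from RefSeq (GRCm38.p6). Named genes are the 9 receptors, Zfp36l1, the 5 genes most like Gpr171 and up to 4 called genes per list and direction with the smallest p. Genes beside a receptor and markers were named for their place or role. The count minimum is that of the filter, and the split of the lists by it was added after seeing the data. Receptors and lists were chosen with earlier results of these data known. Alternatives were DESeq2 1.42.0 and its size factors, no filter, all 12 libraries in 1 fit, each library left out, replicate numbers as a block and, added after seeing the data, a robust spread estimate.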

Additional observations from a re-analysis of the deposited data

Results flagged for a closer look

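Gpr171 measured 79.5 CPM in FO replicate 4, apart from the other 3 FO libraries, which lay between 68.0 and 69.3. Its gap to the nearest library was 0.886 of the range of the group. This is a description with no test, since Gpr171 was chosen for its pattern over these libraries. It was 1 of 30 groups examined for such a gap (9 receptors and Zfp36l1 in 3 groups), and chance gives 1 as wide in about 1 in 20. Every FO library, this one included, lay below every MZ library for Gpr171.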

How the results depend on the processing

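The count of 517 genes called in deficient against control MZ cells was 1049 with DESeq2 and 788 with all 12 libraries in 1 fit, and 253 to 483 when 1 library was left out. Of the 8 receptors chosen for role, 0 to 1 was called when 1 library was left out, since the Adora2a call was lost in 6 of those 8 fits. The count in control MZ against FO cells was 11182 to 11480 when 1 library was left out, with 7 to 8 receptors called. No receptor changed direction in either comparison under any alternative run, and the calls of P2ry10, Gpr174, Adora2a, Gpr18, Ptger4, Cnr2 and Lpar6 in control MZ against FO cells were kept in all 14. None of these alternatives scaled the counts by library total alone, which bears most on Lpar6, the smallest of these changes. Of the counts over the pathway lists, 170 stayed within 1.5 times and 19 did not. The cause was not tested.

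Control MZ and FO libraries share the replicate numbers 3 and 4. Same-numbered libraries did not deviate together (correlations −0.05 and −0.11), so the numbers were not taken as pairs. With the replicate numbers as a block, 9951 genes and 7 of the 8 receptors were called, P2ry14 being the one lost (log2 1.04, adjusted p = 0.167 with edgeR). In that fit only replicates 3 and 4 of each group inform the difference, since the other numbers occur only in control MZ or only in FO cells. Deficient and control MZ libraries share no number. Libraries within a group were not equally alike, by the mean chi-square of their counts per gene. It was 6.48 between control replicates 3 and 4, and 17.7 to 22.8 for other control pairs. Between FO replicates 7 and 8 it was 5.78, and 17.4 to 25.9 for other FO pairs. Deficient replicate 1 stood 25.9 to 48.6 from its group, whose other pairs had 12.7 to 15.9. The libraries of a group may thus not be equally independent. Depth limits P2ry14 most, with 4 to 55 counts a library.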

Other observations

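RGS proteins, receptor kinases and arrestins switch receptor signals off or carry them on. Of 18 such genes tested in control MZ against FO cells, 15 reached the count minimum in both groups, and of these 8 rose, 6 fell and 1 was not called, or 93.3% called against 80.2% of all such genes. Their median log2 fold change was 0.53, but −0.23 over all 18, so its sign depends on the 3 genes that did not reach the minimum in both. Rgs10, which speeds GTP hydrolysis by Gi, averaged 46.2 and 1.79 CPM in control MZ and FO cells (log2 4.71 ± 0.22 SE, edgeR adjusted p = 1.18e-09), and the arrestin gene Arrb1 averaged 17.7 and 124 CPM (log2 −2.80 ± 0.10 SE, edgeR adjusted p = 8.11e-11). In deficient against control MZ cells 0 of 16 were called by edgeR, with 8 at an unadjusted p under 0.05, and 2 by DESeq2. Over all tested genes edgeR called 3.7%, and 2690 of 13987 had an unadjusted p under 0.05.

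Among phosphodiesterase genes, whose products break down cyclic AMP, Pde4a rose and averaged 93.5 and 9.89 CPM in control MZ and FO cells (log2 3.25 ± 0.11 SE, edgeR adjusted p = 8.95e-11), and Pde1b fell and averaged 12.6 and 63.2 CPM (log2 −2.31 ± 0.09 SE, edgeR adjusted p = 1.49e-10). In deficient against control MZ cells Rapgef4, which encodes a cyclic AMP sensor, rose (35.5 and 21.5 CPM, log2 0.71 ± 0.15 SE, edgeR adjusted p = 0.0179), a call lost without deficient replicate 8.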
